A study of Mus musculus with 6 samples.

Results

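The 9 prostanoid receptor genes of the mouse were followed in myometrium, the muscular wall of the uterus, from pregnant Tcf23 knockout and wild-type mice. They were taken by gene symbol from the deposited table, where 9 of 55055 genes match, and all 9 had enough counts to be among the 19599 genes tested. The KO group comprised 3 TCF23 KO animals, in which CRISPR/Cas9 had removed the basic helix-loop-helix gene Tcf23, and the WT group 3 TCF23 WT animals. Both groups were sampled at E19.5, late in pregnancy, and the labels name no treatment, strain, maternal age or tissue-restricted deletion. Poly(A)-selected RNA was sequenced, with 1 library per animal according to the series design. The genotype comparison had already been looked at when the family was chosen, and Ptgdr2 was singled out for its difference between KO and WT. Every KO against WT value of a receptor below is therefore a description and supports nothing further.

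Prostanoid receptors are G protein-coupled receptors for prostaglandins and thromboxane, lipids made from arachidonic acid by the cyclooxygenases. In uterine smooth muscle they fall into a contractile and a relaxant class. Contractile receptors raise calcium through Gq or lower cyclic AMP through Gi. They are EP1 (Ptger1) and EP3 (Ptger3) for prostaglandin E, FP (Ptgfr) for prostaglandin F and TP (Tbxa2r) for thromboxane. Relaxant receptors raise cyclic AMP through Gs, and these are EP2 (Ptger2) and EP4 (Ptger4) for prostaglandin E, IP (Ptgir) for prostacyclin and DP (Ptgdr) for prostaglandin D. The remaining gene, Ptgdr2, encodes CRTH2, a Gi-coupled receptor for prostaglandin D that is related by sequence to leukocyte chemoattractant receptors and is best known on type 2 helper T cells, eosinophils and basophils.

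Total counts were 39939686 to 65036402 in the KO libraries and 47345181 to 55236312 in the WT libraries. Tcf23 had 0, 2 and 1 counts in KO replicates 1, 2 and 3, against 4203, 5970 and 3360 counts in the WT replicates, so its counts matched the genotype labels. Smooth muscle was present in every library: the 8 markers summed to 14618 to 37186 CPM, counts brought to one common library size, in KO and 26142 to 30530.5 CPM in WT. KO replicate 3 stood apart with the lowest sum. KO replicate 1 held the most RNA of 9 genes listed as placental markers (Prl3d1 at 0). Their sums were 326.8, 89.4 and 23.7 CPM in KO and 25.5 to 51.9 CPM in WT. Most of the sum in KO replicates 2 and 3 was Prl8a2, with 72.5, 81.2 and 23.0 CPM in KO and 3.72 to 16.6 CPM in WT. Tpbpa had 243.7, 7.18 and 0.244 CPM in KO, against 9.23 to 33.1 CPM in WT. In bulk tissue, fewer cells of a type and less RNA per cell cannot be told apart.

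Ptgdr2 was the receptor that was lower in KO myometrium. It had 41, 27 and 22 counts in KO replicates 1, 2 and 3, against 250, 159 and 195 counts in WT replicates 1, 2 and 3. In CPM these were 0.637, 0.487 and 0.537 CPM in KO, against 5.36, 3.06 and 3.48 CPM in WT. The KO libraries lay close together and each was far below the lowest WT library. The means were 0.554 ± 0.0767 CPM in KO and 3.97 ± 1.22 CPM in WT (SD, n = 3 each), a 7.17-fold lower mean level in KO. The fitted log2 change was −2.83 ± 0.30 (SE), with a 95% interval of −3.54 to −2.12, and the quasi-likelihood test of edgeR over all genes gave an adjusted p of 0.0567, which missed the threshold of 0.05. By p, Ptgdr2 was number 8 of 19599 genes.

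**Figure D1:**
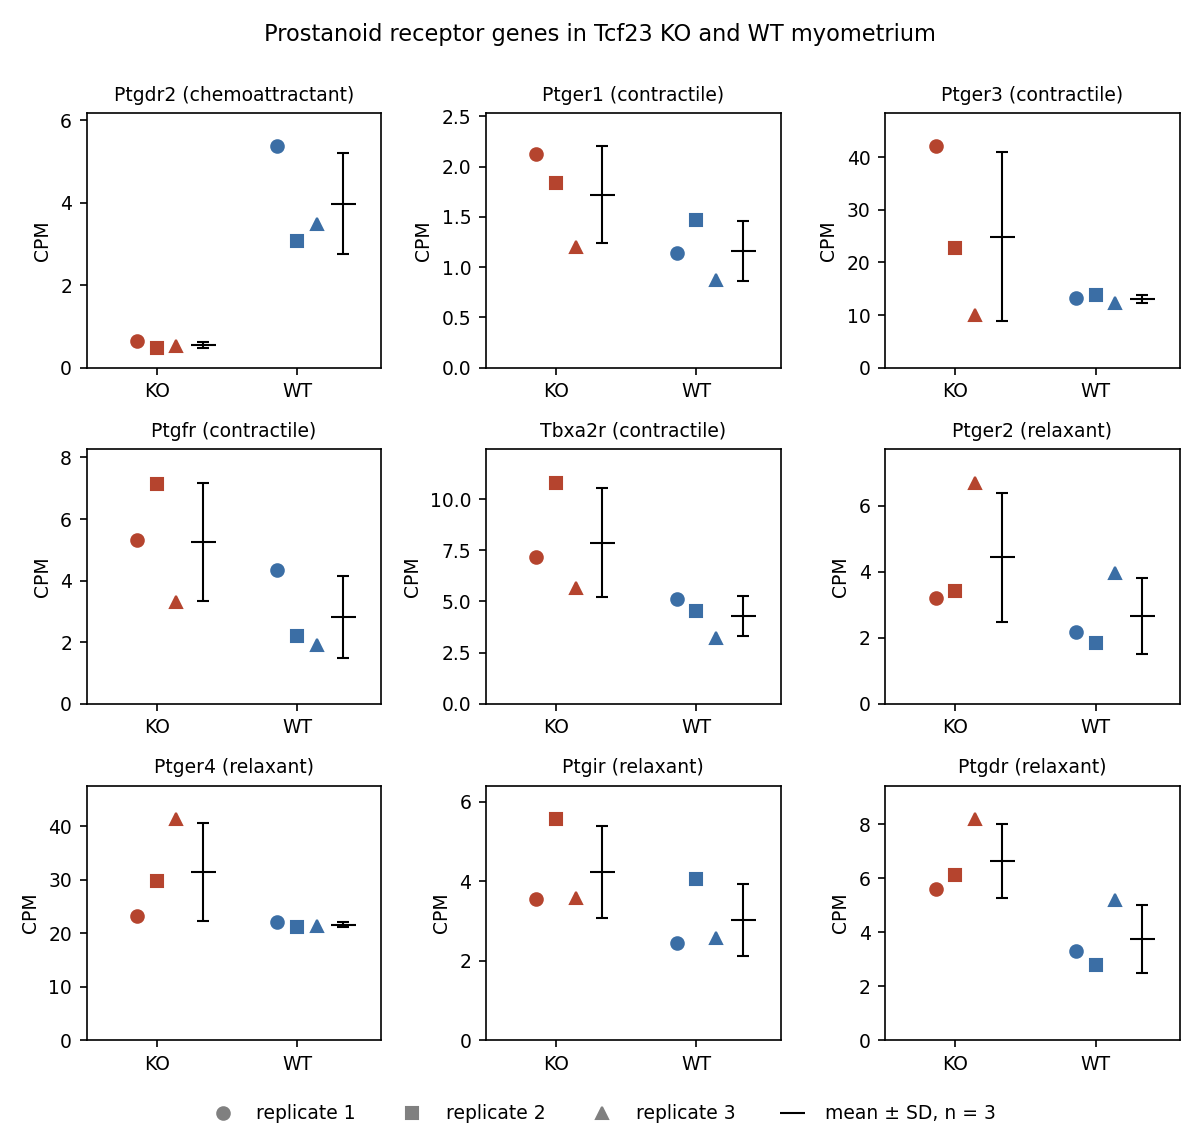
CPM of each prostanoid receptor gene in the 3 KO libraries (red, left) and the 3 WT libraries (blue, right), with marker shapes for replicate numbers and black bars for the mean ± SD; each panel has its own axis from 0. Ptgdr2 lies at 0.487 to 0.637 CPM in KO and at 3.06 to 5.36 CPM in WT, while the other 8 genes have higher means in KO.

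Of the 9 receptors, 0 passed the edgeR threshold, beside 0.0204% of all genes tested, and 4 had an unadjusted p under 0.05, beside 8.56% of all genes. DESeq2 called 1 receptor, Ptgdr2 (adjusted p = 1.49e-13), beside 1.92% of all genes, and limma-voom called 0 receptors. Ptgdr2 also passed in edgeR with upper-quartile scaling (adjusted p = 0.0499) and with no low-count filter (adjusted p = 0.00236). With the replicate number as a block its log2 change was −2.81 (edgeR adjusted p = 0.0551). That blocked fit also called 0 receptors, beside 0.0357% of all genes, and 7 of the 9 had an unadjusted p under 0.05, beside 10.5% of all genes. With any 1 library left out, its log2 change stayed within −2.99 to −2.55, with edgeR adjusted p of 0.0797 to 0.281.

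Ptgdr2 (ENSMUSG00000034117) lies on mm10 chromosome 19, 10937160 to 10942511, on the plus strand, and 1031 of its 2644 exon bases also belong to Ccdc86 on the minus strand. Ccdc86, which encodes a nucleolar protein, had 32.1, 17.9 and 22.9 CPM in KO replicates 1, 2 and 3, against 32.6, 30.2 and 38.3 CPM in WT. KO replicate 1 reached the WT range for Ccdc86 and not for Ptgdr2. Whether the authors counted by strand is not stated. In these counts, 12.9% of 443 non-coding genes whose exons lie wholly within exons of the other strand had any count, against 47.4% of 29376 that share no exon base with it. What the shared bases of Ptgdr2 contributed to its counts was not tested.

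The promoters of 3 receptors are shown to set the gene that was lower in KO beside the most abundant relaxant and the most abundant contractile receptor. Sequences are from RefSeq (GRCm38.p6), 250 bases before to 50 after the start of transcription, and 8 of the 9 genes had one. Capitals mark the E-box CANNTG, searched on both strands, the motif that basic helix-loop-helix factors are known to bind.
Ptgdr2, chr19:10936910-10937209, plus strand: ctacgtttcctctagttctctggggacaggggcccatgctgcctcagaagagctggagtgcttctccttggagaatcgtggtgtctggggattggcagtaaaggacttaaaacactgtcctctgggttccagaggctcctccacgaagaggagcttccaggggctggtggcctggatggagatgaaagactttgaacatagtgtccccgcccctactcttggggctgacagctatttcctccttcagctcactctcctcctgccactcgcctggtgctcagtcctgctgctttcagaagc
Ptger4, chr15:5244138-5244437, minus strand: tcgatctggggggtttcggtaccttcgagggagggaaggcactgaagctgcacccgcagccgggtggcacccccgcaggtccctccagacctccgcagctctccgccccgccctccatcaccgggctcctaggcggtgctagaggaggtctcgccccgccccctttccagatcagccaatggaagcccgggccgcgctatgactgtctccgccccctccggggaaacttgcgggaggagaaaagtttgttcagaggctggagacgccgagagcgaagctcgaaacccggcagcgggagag
Ptger3, chr3:157566626-157566925, plus strand: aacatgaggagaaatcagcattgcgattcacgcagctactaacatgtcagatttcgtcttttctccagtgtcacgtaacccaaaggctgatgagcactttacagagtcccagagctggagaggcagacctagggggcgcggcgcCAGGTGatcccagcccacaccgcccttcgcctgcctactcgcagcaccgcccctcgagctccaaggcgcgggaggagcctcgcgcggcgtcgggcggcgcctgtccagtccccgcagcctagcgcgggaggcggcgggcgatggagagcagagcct
An E-box was found in 72.3% of the 32851 promoters of the table and in 6 of the 9 promoters of these genes, since Tbxa2r has more than 1 start. The window of Ptger3 holds 1, and the windows of Ptgdr2, Ptger4 and Ptgdr hold 0. The AP-1 motif TGANTCA, also searched on both strands, was in 0 of the 9 promoters and in 7.81% of all promoters. A match or its absence in this window says nothing about binding.

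The other 8 receptors had positive log2 changes, from 0.48 to 0.93, with a median of 0.78, beside a median of 0.01 over all genes tested, of which 52.1% were positive. None of the 8 passed: edgeR adjusted p was 0.442 to 0.761, DESeq2 and limma-voom called 0 of them, and 3 had an unadjusted p under 0.05 in edgeR. The KO and WT groups did not overlap for 3 of the 8, Tbxa2r, Ptgdr and Ptger4, all higher in KO, beside 7.22% of all genes. For Ptgdr2 the groups did not overlap in the other direction, beside 7.01% of all genes. Between libraries of the same number, KO exceeded WT in all 3 pairs for 7 of the 8, and in 2 of 3 pairs for Ptger3. The labels do not say what the numbers link, and the share of all genes with 3 such pairs was not worked out. In the fit with the number as a block, Ptgfr, Ptger2 and Ptgir, whose groups overlapped, had unadjusted p of 0.0251, 0.0114 and 0.0465 and edgeR adjusted p of 0.387, 0.308 and 0.467.

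**Figure D2:**
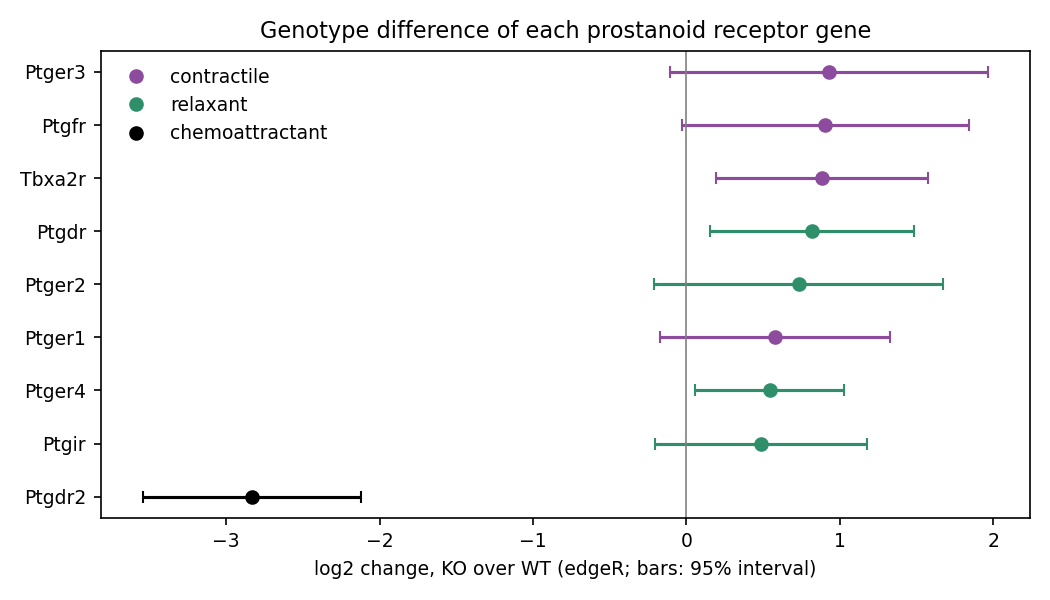
Fitted log2 change, KO over WT, of each receptor gene (points) with its 95% interval (bars), coloured by class. The 8 contractile and relaxant receptors lie between 0.48 and 0.93, 5 of them with intervals that include 0, and Ptgdr2 lies at −2.83.

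Among the contractile receptors, Ptger3 was the most abundant, and it lies on chromosome 3 from 157566892 to 157645888 (plus strand) of mm10. It had 42.1, 22.7 and 10.05 CPM in KO replicates 1, 2 and 3, against 13.2, 13.9 and 12.3 CPM in WT. The WT libraries were nearly level, while the KO libraries lay on both sides of them, with replicate 1 highest and replicate 3 lowest. The log2 change was 0.93 ± 0.44 (95% interval −0.11 to 1.96). It was 0.33 without KO replicate 1, the highest library, and 1.30 without KO replicate 3, the lowest. KO replicate 1 also had the most placental marker RNA. The part of placental RNA in the Ptger3 value of that library was not tested.

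Tbxa2r, the thromboxane receptor gene on chromosome 10 from 81328731 to 81335172 (plus strand), had 7.17, 10.8 and 5.66 CPM in KO, against 5.10, 4.53 and 3.19 CPM in WT. Each KO library lay above each WT library, with KO replicate 3 only just above WT replicate 1. The log2 change was 0.88 ± 0.30 (95% interval 0.19 to 1.57, edgeR adjusted p = 0.442, DESeq2 adjusted p = 0.136). Ptgfr lies on chromosome 3 from 151796502 to 151837630 (minus strand), and its receptor mediates the contractile and luteolytic action of prostaglandin F. It had 5.33, 7.14 and 3.29 CPM in KO, against 4.33, 2.22 and 1.91 CPM in WT. The groups overlapped because WT replicate 1 exceeded KO replicate 3, and the log2 change was 0.90 ± 0.40 (95% interval −0.03 to 1.84).

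Ptger1, on chromosome 8 from 83666678 to 83672753 (plus strand), was the contractile receptor gene with the fewest counts. It had 2.13, 1.84 and 1.19 CPM in KO, against 1.14, 1.46 and 0.874 CPM in WT, with overlapping groups and a log2 change of 0.58 ± 0.32 (95% interval −0.17 to 1.32). Its level is uncertain, since most of its exon bases are not unique to it.

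Among the relaxant receptors, Ptger4 was the most abundant and the most even in WT, and it lies on chromosome 15 from 5233399 to 5244187 (minus strand). It had 23.2, 29.8 and 41.4 CPM in KO replicates 1, 2 and 3, against 22.1, 21.2 and 21.4 CPM in WT. All KO libraries lay above all WT libraries, but KO replicate 1 by little. The log2 change was 0.54 ± 0.21 (95% interval 0.06 to 1.03, edgeR adjusted p = 0.526), and 0.29 without KO replicate 3. Ptger4 also shares 1097 of its 6648 exon bases with genes on the other strand.

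Ptgdr lies on chromosome 14 from 44851235 to 44859375 (minus strand). It encodes the other prostaglandin D receptor and, unlike Ptgdr2, had a positive log2 change. It had 5.61, 6.11 and 8.19 CPM in KO, against 3.30, 2.79 and 5.17 CPM in WT. The groups did not overlap, WT replicate 3 reaching closest to KO, and the log2 change was 0.82 ± 0.28 (95% interval 0.15 to 1.48, edgeR adjusted p = 0.467, DESeq2 adjusted p = 0.175). Its exons share 705 of 3187 bases with a pseudogene on the other strand that had at most 9 counts in a library.

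Ptger2, the second Gs-coupled prostaglandin E receptor gene, lies on chromosome 14 from 44988195 to 45003820 (plus strand). It had 3.22, 3.41 and 6.71 CPM in KO, against 2.16, 1.85 and 3.98 CPM in WT. WT replicate 3 lay above KO replicates 1 and 2, so the groups overlapped. The log2 change was 0.73 ± 0.40 (95% interval −0.21 to 1.67), 0.31 without KO replicate 3 and 1.14 without WT replicate 3. Ptger2 and Ptgdr are neighbours on chromosome 14, 128819 bases apart, and within each genotype both were highest in replicate 3.

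Ptgir, the prostacyclin receptor gene on chromosome 7 from 16906490 to 16910905 (plus strand), had 3.54, 5.57 and 3.58 CPM in KO, against 2.44, 4.07 and 2.57 CPM in WT. Replicate 2 was highest in both genotypes and the groups overlapped. The log2 change of 0.48 ± 0.30 (95% interval −0.21 to 1.18) was the smallest of the 8, and it was 0.24 without KO replicate 2 and 0.75 without WT replicate 2.

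Levels of different genes were compared as CPM per kilobase of exon. In KO, mean levels ran from Ptger4 (4.73 CPM per kb) through Ptger3 (4.38), Tbxa2r (4.10), Ptgdr (2.08), Ptgir (1.27), Ptger2 (0.856), Ptgfr (0.775) and Ptger1 (0.315) to Ptgdr2 (0.209). In WT they ran from Ptger4 (3.24 CPM per kb) through Ptger3 (2.31), Tbxa2r (2.23), Ptgdr2 (1.5005), Ptgdr (1.18), Ptgir (0.908), Ptger2 (0.513) and Ptgfr (0.416) to Ptger1 (0.212). Ptgdr2 thus held place 9 in KO and place 4 in WT, and the other 8 kept one order. In WT the ranges of neighbours overlapped from Ptger3 down to Ptgfr, and did not overlap between Ptger4 and Ptger3 or between Ptgfr and Ptger1. In KO they overlapped among Ptger4, Ptger3 and Tbxa2r, among Ptgir, Ptger2 and Ptgfr, and between Ptger1 and Ptgdr2. The same CPM was also divided by the length of exon not shared with the other strand. Ptgdr2 then still held place 9 in KO and held place 2 in WT. Any reads counted on shared bases stay in that value. Whether such reads were counted is not stated, so levels per kilobase are uncertain for genes with shared bases. Most of the receptor mRNAs are of middle or low abundance. Ptger4 stood at percentile 60.3 of tested genes in KO and 52.4 in WT, and Ptgdr2 at percentile 11.02 in KO and 38.4 in WT.

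Set against each other, the relaxant share of the receptor level lay on both sides of WT in the KO libraries. The 4 contractile receptors summed to 12.3, 11.01 and 5.42 CPM per kb in KO replicates 1, 2 and 3, against 5.83, 5.39 and 4.27 CPM per kb in WT. The 4 relaxant receptors summed to 6.94, 8.72 and 11.2 CPM per kb in KO, against 5.51, 5.65 and 6.37 CPM per kb in WT. Both sums were higher in most KO libraries, the contractile sum of KO replicate 3 alone falling inside the WT range. The relaxant share of the 2 sums was 36.05%, 44.2% and 67.3% in KO, against 48.6%, 51.2% and 59.9% in WT. KO replicates 1 and 2 lay below every WT library and KO replicate 3 above every one, with means of 49.2 ± 16.2% in KO and 53.2 ± 5.92% in WT (SD, n = 3 each).

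Tissue markers also differed among the KO libraries. KO replicate 3, with the highest relaxant share, had the lowest smooth muscle sum of the 6 libraries (14618 CPM) and the highest sum of 6 uterine epithelial markers (2807 CPM). The epithelial sums were 1721, 729.3 and 2807 CPM in KO replicates 1, 2 and 3, against 1392, 1062 and 2293 CPM in WT, so replicate 3 was highest in both genotypes, as were Ptger2 and Ptgdr. The smooth muscle sums were 33119.5, 37186 and 14618 CPM in KO, against 30530.5, 30042 and 26142 CPM in WT, and replicate 3 was lowest in both genotypes, as it was for each of the 4 contractile receptors. The part of tissue content in the receptor values was not tested. Ptgdr2 was 0.487 to 0.637 CPM in KO, on 22 to 41 counts a library, so the order of its KO libraries was not read.

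**Figure D3:**
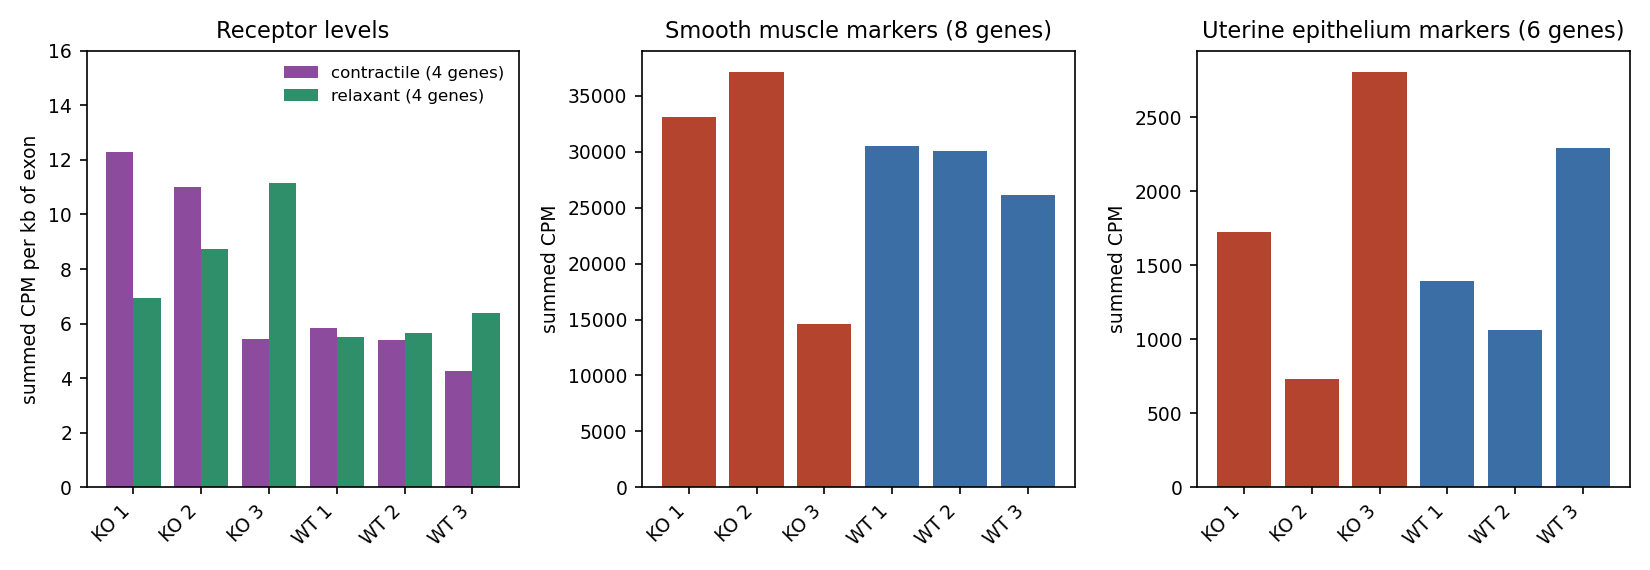
Left, summed CPM per kb of the 4 contractile (purple) and 4 relaxant (green) receptor genes in each library; middle and right, summed CPM of smooth muscle and uterine epithelial markers (KO red, WT blue), all axes from 0. KO replicate 3 pairs the highest relaxant share (67.3%) with the lowest smooth muscle sum (14618 CPM) and the highest epithelial sum (2807 CPM).

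Ptgdr2 is best known on blood cells, and markers of these cells differed in direction. All 9 mast cell and basophil markers tested had negative log2 changes (median −0.95). Of them 4 had an edgeR unadjusted p under 0.05, beside 8.56% of all genes, and 0 passed the adjusted threshold, beside 0.0204%. Their sums, over 10 listed genes all with counts, were 158.0, 118.9 and 93.9 CPM in KO, against 173.0, 238.5 and 154.4 CPM in WT. The sums overlapped between genotypes. Gata2 was the largest part of each, at 49.9 to 72.8 CPM in KO and 59.3 to 65.5 CPM in WT. The mast cell carboxypeptidase gene Cpa3 had 21.2, 8.13 and 7.73 CPM in KO, against 18.5, 34.8 and 18.3 CPM in WT. KO replicate 1 was inside the WT range for Cpa3. For 3 markers of the list, Kit, Ms4a2 and Tpsab1, each KO library was below each WT library, as for Ptgdr2 and for 7.01% of all genes. Kit, the stem cell factor receptor gene, had 6.05, 8.46 and 10.4 CPM in KO, against 11.02, 12.2 and 10.9 CPM in WT. Mcpt8, the gene of a basophil protease, was at or near 0, with 0 to 3 counts in KO and 1 to 3 counts in WT.

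Markers of type 2 helper T cells and innate lymphoid cells, 8 of 8 with counts, summed to 11.4, 14.0 and 18.1 CPM in KO, against 11.9, 15.3 and 14.1 CPM in WT. Il17rb made up 11.7 of the 18.1 CPM in KO replicate 3. Of the 5 markers tested, 4 were positive and 3 had an edgeR unadjusted p under 0.05, beside 8.56% of all genes. The adjusted threshold was passed by 0, beside 0.0204%. Icos and Il7r were higher in KO without overlap, beside 7.22% of all genes. Icos had 0.948 to 1.10 CPM in KO and 0.366 to 0.642 CPM in WT. Il7r had 1.29 to 1.93 CPM in KO and 0.443 to 1.05 CPM in WT. The negative marker was Il1rl1, the interleukin-33 receptor gene, which mast cells also express. It had 3.05 to 3.68 CPM in KO and 4.07 to 7.82 CPM in WT, lower without overlap, beside 7.01% of all genes. The defining cytokine gene Il13 was near 0, with 1 to 2 counts in KO and 1 in WT. Eosinophil markers summed to 21.9, 22.5 and 37.1 CPM in KO, against 19.6, 18.8 and 22.2 CPM in WT, with 7 of 8 detected and Ear6 at 0. Most of each sum was Il5ra, with 13.0, 10.5 and 28.5 CPM in KO and 10.5 to 15.0 CPM in WT, and Ear2. Siglecf had 0.0933 to 0.415 CPM in KO and 0.0857 to 0.154 CPM in WT. Epx, the eosinophil peroxidase gene, had 0 to 5 counts in KO and 1 to 2 counts in WT.

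Mesothelial, lymphocyte and neutrophil sums did not overlap between genotypes. Mesothelial markers, 5 of 5 with counts and all 5 with negative log2 changes, summed to 85.0, 96.7 and 67.1 CPM in KO, against 237.0, 140.6 and 132.0 CPM in WT. Like Ptgdr2, this sum was highest in WT replicate 1. The mesothelial gene Upk3b had 2.38, 3.48 and 5.73 CPM in KO, against 59.8, 21.4 and 2.94 CPM in WT, so WT replicate 3 was inside the KO range for Upk3b. Msln, the mesothelin gene, had 28.1, 14.0 and 17.7 CPM in KO, against 73.4, 41.7 and 64.0 CPM in WT, each KO library below each WT library, as for Ptgdr2. Msln was the only 1 of the 5 whose groups did not overlap. Wt1, the largest part of each KO sum, had 53.7, 77.6 and 41.1 CPM in KO, against 70.8, 64.3 and 63.9 CPM in WT. WT replicate 3 also had 0.321 CPM of Upk1b and 0.785 CPM of Lrrn4, against 0.435 to 0.829 and 0.451 to 1.78 CPM in KO. Of the 5, 4 had an edgeR unadjusted p under 0.05, beside 8.56% of all genes. Natural killer and T cell markers, 11 of 11 with counts and positive, summed to 24.7, 16.7 and 18.8 CPM in KO, against 10.4, 9.27 and 9.65 CPM in WT. In edgeR 9 of the 11 had an unadjusted p under 0.05, and 8 were higher in KO without overlap, beside 7.22% of all genes. Neutrophil markers, 7 of 7 with counts, summed to 20.1 to 31.8 CPM in KO and 6.98 to 11.6 CPM in WT. Of 5 neutrophil markers tested, 4 had an edgeR unadjusted p under 0.05, and 4 were higher in KO without overlap. Cpa3, Kit, Ms4a2, Tpsab1, Gata2, Il17rb, Icos, Il7r, Il1rl1, Il5ra, Ear2, Siglecf, Upk3b, Msln, Wt1, Upk1b and Lrrn4 were singled out after their values were seen. The part of these cell types in the Ptgdr2 value was not tested.

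Platelets and endothelium are further sites of Tbxa2r and Ptgir. Platelet markers summed to 38.6 to 57.3 CPM in KO and 41.4 to 70.8 CPM in WT, with 5 of 6 detected and Gp1bb at 0. Endothelial markers summed to 452.4, 643.0 and 330.2 CPM in KO, against 559.8, 491.3 and 473.2 CPM in WT, all 6 with counts. KO replicate 2 had the highest endothelial sum and the highest Tbxa2r, Ptgfr and Ptgir, and also the highest smooth muscle sum (37186 CPM). Within WT, the endothelial sum was highest in replicate 1, where Tbxa2r and Ptgfr were highest and Ptgir was lowest. The part of these cell types in the receptor values was not tested. Macrophage sums (8 genes, 1301 to 1568 CPM in KO and 1202 to 1659.9 CPM in WT) and fibroblast sums (5 genes, 9339.95 to 11792 CPM in KO and 9341 to 15114.5 CPM in WT) overlapped.

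The genes whose profile over the 6 libraries was most like that of Ptgdr2 were picked by the root mean square difference of log2(CPM + 0.1), each centred on its own mean, among 15053 genes with a mean of at least 1 CPM. They were Cyp24a1, a vitamin D-degrading enzyme gene (difference 0.23), the predicted gene Gm48874 (0.27), the angiotensin receptor gene Agtr1a (0.38), the potassium channel gene Kcnk2 (0.40) and Gfra1, a receptor gene for glial cell line-derived factor (0.42). Agtr1a had 9.98, 14.3 and 6.88 CPM in KO, against 71.2, 45.03 and 42.8 CPM in WT, and like Ptgdr2 it was highest in WT replicate 1. Cyp24a1 had 0.357, 0.180 and 0.171 CPM in KO, against 2.42, 1.87 and 2.09 CPM in WT. All 5 were lower in every KO library than in every WT library, which the choice by likeness to Ptgdr2 favours. Of the 5, Kcnk2 passed the edgeR threshold (log2 −1.93, adjusted p = 0.0101), beside 0.0204% of all genes tested. The edgeR adjusted p was 0.0567 to 0.153 for the rest.

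**Figure D4:**
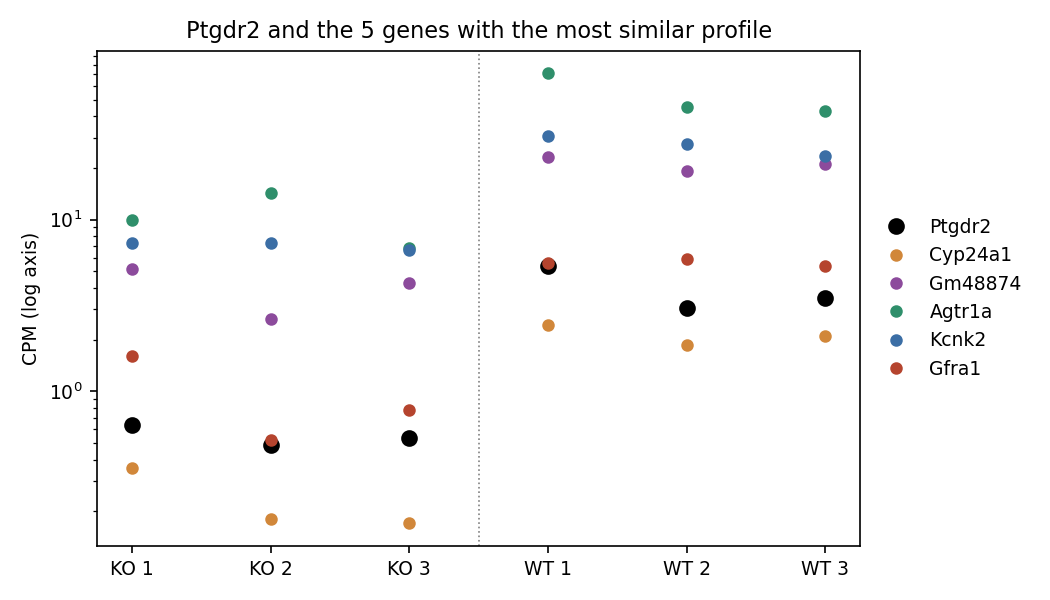
CPM on a log axis of Ptgdr2 (black) and the 5 genes with the most similar profile in the 3 KO and 3 WT libraries. Levels differ between genes, and each gene is lower in the 3 KO libraries than in the 3 WT libraries, Ptgdr2 at 0.487 to 0.637 CPM in KO against 3.06 to 5.36 CPM in WT. The 5 genes were chosen by likeness to Ptgdr2, which favours this direction.

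The genes around these receptors, in 6 lists with 64 tested genes, gave 0 edgeR calls, beside 0.0204% of all genes, and 6 genes with an unadjusted p under 0.05, beside 8.56% of all genes. DESeq2 called 1, beside 1.92% of all genes, and limma-voom 0, and with the replicate block 11 had an unadjusted p under 0.05, beside 10.5% of all genes. Of 12 genes for prostanoid synthesis, 11 were positive (median log2 0.22), and 0 passed in either direction. Ptgds, a prostaglandin D synthase gene and so a source of the ligand of Ptgdr and Ptgdr2, was the DESeq2 call (adjusted p = 0.00714). It had 2.61, 6.15 and 1.07 CPM in KO, against 0.9003, 0.501 and 0.696 CPM in WT (log2 2.23 ± 0.61, edgeR adjusted p = 0.343). Each KO library was above each WT library by very different amounts. Ptgds was the only 1 of the 12 higher in KO without overlap, beside 7.22% of all genes. Hpgds, the haematopoietic prostaglandin D synthase gene, had 47.2, 99.8 and 98.5 CPM in KO, against 41.3, 64.2 and 56.5 CPM in WT, with overlapping groups. The inducible cyclooxygenase gene Ptgs2 had 8.84, 9.97 and 4.39 CPM in KO, against 6.71, 1.33 and 4.53 CPM in WT, and Prxl2b, a prostaglandin F synthase gene, had a log2 change of 0.34.

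Of 6 genes for transport and breakdown, 3 were positive and 3 negative (median log2 0.12), and 0 passed in either direction. Ptgr1, a prostaglandin reductase gene, had 35.5, 42.5 and 23.3 CPM in KO, against 17.5, 22.9 and 19.2 CPM in WT (log2 0.76 ± 0.23, edgeR adjusted p = 0.381). It was the only 1 of the 6 higher in KO without overlap, beside 7.22% of all genes. The exporter gene Abcc4 had 120.8, 136.6 and 178.5 CPM in KO, against 62.0, 78.0 and 127.3 CPM in WT, and like Ptger2 was highest in replicate 3 of both genotypes. Log2 changes were 0.30 for the carbonyl reductase gene Cbr1 and −0.15 for Hpgd, the main inactivating dehydrogenase gene.

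The signalling partners of the receptors had list medians near 0. Of 10 G alpha subunit genes, 7 were positive and 3 negative (median log2 0.06), and 0 passed. Gnas, the Gs subunit used by the relaxant receptors, had 20.2, 17.2 and 28.6 CPM in KO, against 17.3, 12.9 and 11.5 CPM in WT (log2 0.66 ± 0.24, edgeR adjusted p = 0.480), with KO replicate 2 just below WT replicate 1. Gnao1, Gnai1 and Gna13 had log2 changes of 0.55, 0.20 and −0.20. Of 17 cyclic AMP effector genes, 7 were positive and 10 negative (median −0.03), and 0 passed. Among them Rapgef4, a cyclic AMP-activated exchange factor gene, was above WT in each KO library (log2 0.59), and Prkar1a, a regulatory subunit gene of protein kinase A, was below WT in each (log2 −0.39), with Prkar2b at −0.29 and Adcy3 at 0.26. Of the 17, 1 was thus higher and 1 lower in KO without overlap, beside 7.22% and 7.01% of all genes. All 6 receptor kinase and arrestin genes were positive (median 0.13) and 0 passed, with Arrb2 at 38.0 to 40.1 CPM in KO and 27.7 to 37.2 CPM in WT, and with Arrb1, Grk6 and Grk5 at log2 0.16, 0.13 and 0.09. Arrb2 was the only 1 of the 6 higher in KO without overlap, beside 7.22% of all genes.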

How the data were processed

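Per the labels, total RNA was poly(A)-selected and made into directional libraries. The authors deposited a raw count file for each library and a joint table of normalized signal, in which each value equals the count times a constant of its library (0.804 to 1.26). Tools listed in the submitters' processing notes are HISAT2 2.2.1, HTSeq 0.9.1, DESeq2 2.11.40.7 and FastQC 0.73, with build mm10. The sources used here do not give the annotation release or strand setting. Lengths and overlaps come from GENCODE M21, start positions are printed counting from 1, and Fam213b was matched as Prxl2b.

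The deposited counts went into edgeR 4.0.16 under R 4.3.3 (filterByExpr, TMM, quasi-likelihood fit on genotype, Benjamini-Hochberg over 19599 genes; biological coefficient of variation 26.3%); alternatives used DESeq2 1.42.0 and limma 3.58.1. SE and 95% intervals were derived from the F statistic. The fit was tested on simulated data first. There it recovered 37% of 2-fold and 89% of 4-fold changes at the threshold, and 6.67% of its calls were false. Because the normalized signal carries the same counts, the tests used the counts and the signal served an alternative in limma on log2(value + 1). The text names the 9 receptors, up to 4 genes per pathway list by p, and the 5 profiles most like Ptgdr2; members and lists were chosen with earlier results of these data known. Deviations from group means correlated at 0.147, 0.196 and 0.217 between KO and WT libraries of the same number in the titles, so the numbers were treated as pairs in the block alternative; what links them is not stated. With the block, edgeR called 2 genes higher and 5 lower, against 0 and 4 without it. Replicates of a genotype differed by more than sampling noise (chi-square over degrees of freedom of 36.3 to 233.9), and each counted as 1 sample. The labels name no batch, and give E19.5 where the design text gives gestational day 19. Counts limit precision: Ptgdr2 had 22 to 41 counts in a KO library. The results of 1 pathway list and of 1 gene sharing exon bases with a receptor are not reported here.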

Additional observations from a re-analysis of the deposited data

How the results depend on the processing

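The direction of each of the 9 receptors was the same under all 14 alternatives run, 8 of changed processing and 6 with 1 library left out. Ptgdr2 was the one receptor whose call changed, passing with upper-quartile scaling (log2 −2.80), with no low-count filter (−2.84) and in DESeq2 (−2.84). Over all genes, edgeR called 0 higher and 4 lower. These counts were 4 and 8 with upper-quartile scaling, 47 and 34 with no filter, and 247 and 135 in DESeq2. With the replicate block, 2 were higher, and the block changed no call of a receptor or pathway gene at the adjusted threshold, while the receptors at an unadjusted p under 0.05 were 7 with it and 4 without. Leaving out 1 library gave 0 to 3 higher and 1 to 4 lower, with 1 lower without WT replicate 1 and likewise without WT replicate 2. The causes were not tested. The mean relaxant share was 40.1 to 55.8% in KO and 49.9 to 55.5% in WT with 1 library left out; it was 54.9% in KO and 59.3% in WT not divided by length, and 63.1% in KO and 67.3% in WT without Ptger3. Place 2 of Ptgdr2 in WT, from whole-gene CPM over unshared exon length, was an alternative chosen after seeing the data. With 3 animals a group, the upper 95% bounds of the other 8 receptors' log2 changes were 1.03 to 1.96.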

Other observations

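The tested genes within 200 kb of Ptgdr2 on chromosome 19 did not share one direction, but the nearest of them did. Of 12 other tested genes in this window, 5 had positive and 7 negative log2 changes, from −1.96 to 1.05, with a median of −0.09. From Ccdc86, which overlaps Ptgdr2, through Zp1, Prpf19 and Tmem109 to Tmem132a at 67220 bases, all were negative. Their log2 changes were −0.47, −1.96, −0.54, −0.10 and −0.09. The nearest positive gene, Slc15a3, lay 79245 bases away, and genes beyond it went both ways. In edgeR 0 passed, beside 0.0204% of all genes, and 3 had an unadjusted p under 0.05, beside 8.56% of all genes. Zp1, which encodes a zona pellucida protein and starts 16528 bases away, was also lower in each KO library than in each WT library, at a low mean of 0.115 CPM in KO and 0.460 CPM in WT (log2 −1.96 ± 0.40, edgeR adjusted p = 0.232). Prpf19, a splicing factor gene, averaged 157.7 CPM in KO and 229.3 CPM in WT (log2 −0.54). In the other direction, Slc15a3, a peptide and histidine transporter gene, averaged 5.96 CPM in KO and 3.85 CPM in WT (log2 0.63). The groups also did not overlap for Prpf19, lower in KO as Zp1 was, beside 7.01% of all genes. They did not overlap for Slc15a3 and Cd6, higher in KO, beside 7.22% of all genes. These neighbours were looked at after their values could be seen.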
